A study of Homo sapiens with 18 samples.

Results

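GR binding was examined near 10 genes of osteoblast differentiation in dexamethasone (dex)-treated human osteosarcoma cells. The genes were RUNX2, SP7, MSX1, MSX2, DLX5, ALPL, BGLAP, SPP1, TNFRSF11B and TNFSF11. A GR binding region (GBR) was assigned to a gene when the summit of its ChIP-seq peak lay within 100 kb of the canonical transcription start site (TSS), on either side. Peaks from different lists that overlapped by at least 1 bp were counted as 1 GBR. By this rule 10 GBR of 9736 in all lists together belonged to the osteoblast genes. These 10 GBR lay near 6 of the 10 genes, and the other 4, MSX1, DLX5, BGLAP and TNFSF11, had no GBR in any list. The GBR farthest from its TSS inside the limit lay 77.7 kb from ALPL by its siHic5/siNS summit, and the nearest one outside it lay 101 kb from MSX2.

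The cells were U2OS-GRα, a single osteosarcoma line that stably expresses the glucocorticoid receptor α from a transgene. There were 6 siRNA combinations: the nonspecific control (siNS/siNS), Hic-5 depletion (siHic5/siNS), CHD9 depletion (siCHD9/siNS), BRM depletion (siBRM/siNS), and the double depletions siCHD9/siHic5 and siBRM/siHic5. Every combination was given siRNA for 48 h and 100 nM dex for 1 h, so all 6 lists describe dex-treated cells. Each had 2 GR ChIP-seq libraries, 12 in all, and 1 input library, but the authors called peaks on the pooled replicates and deposited 1 list per combination, so no spread between replicates could be given and values were set side by side without a p-value. The control list held 2582 GBR, and depletion of Hic-5 gave 9533. Double depletion gave 2451 GBR with CHD9 and 3383 with BRM, and depletion of CHD9 or BRM alone gave 1415 and 1278. The expression of the 10 genes and the degree of depletion were not analysed here, and neither was the osteoblast identity of the line.

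Osteoblasts arise from mesenchymal progenitors under the control of RUNX2 and, downstream of it, SP7, with homeobox factors of the MSX and DLX families acting in the BMP response. Mature osteoblasts secrete a collagen matrix, mineralize it with the help of alkaline phosphatase, and set the pace of bone resorption through the ligand TNFSF11 and its decoy receptor TNFRSF11B. Glucocorticoids act on osteoblasts through GR, and prolonged exposure is a known cause of bone loss. Hic-5 is a coregulator of GR, and CHD9 and BRM are ATP-dependent chromatin remodelers.

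The sequences on which these GBR rest are printed here to show which of them hold a recognizable GR or partner motif. Each is the 200-bp window around the summit of the GBR in the list where its −log10 p-value was highest, on the plus strand of GRCh38. Capitals mark matches to the glucocorticoid response element (GRE, at most 1 mismatch at its 10 defined positions), to AP-1 (TGACTCA or TGAGTCA) and to RUNX (TGTGGT), on either strand. ETS was searched as CAGGAA or CCGGAA followed by a purine and a pyrimidine, and none of the windows shown holds it. In the MSX2 downstream GBR, which holds none of these, capitals mark a tandem repeat. The MSX2 upstream GBR and the ALPL GBR other than the one called in 5 lists were added after their values were seen.
MSX2 upstream GBR, chr5:174709365-174709564: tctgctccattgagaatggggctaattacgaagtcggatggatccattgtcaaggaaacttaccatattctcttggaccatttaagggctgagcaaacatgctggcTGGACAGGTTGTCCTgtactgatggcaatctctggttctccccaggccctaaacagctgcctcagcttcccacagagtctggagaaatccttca
MSX2 downstream GBR, chr5:174737561-174737760: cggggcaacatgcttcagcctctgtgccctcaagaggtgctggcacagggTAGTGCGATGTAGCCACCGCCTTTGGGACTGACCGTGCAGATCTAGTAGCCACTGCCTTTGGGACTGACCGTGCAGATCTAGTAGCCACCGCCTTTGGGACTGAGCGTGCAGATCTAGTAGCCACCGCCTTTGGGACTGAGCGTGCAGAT
ALPL GBR called in siCHD9/siHic5 alone, chr1:21568449-21568648: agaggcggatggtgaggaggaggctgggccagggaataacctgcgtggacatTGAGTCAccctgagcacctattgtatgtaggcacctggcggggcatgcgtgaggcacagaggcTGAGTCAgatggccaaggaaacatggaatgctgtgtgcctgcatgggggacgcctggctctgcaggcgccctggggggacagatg
ALPL GBR called in 5 lists, chr1:21574225-21574424: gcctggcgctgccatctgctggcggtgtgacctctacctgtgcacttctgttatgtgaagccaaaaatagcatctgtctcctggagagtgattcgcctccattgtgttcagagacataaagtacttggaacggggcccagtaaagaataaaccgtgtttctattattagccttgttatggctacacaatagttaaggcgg
ALPL GBR in LINC02596, chr1:21587051-21587250: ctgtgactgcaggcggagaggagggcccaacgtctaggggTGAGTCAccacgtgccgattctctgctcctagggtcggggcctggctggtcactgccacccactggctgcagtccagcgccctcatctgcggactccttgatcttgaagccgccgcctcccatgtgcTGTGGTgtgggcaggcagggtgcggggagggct
SPP1 GBR, 64.5 kb upstream, chr4:87911129-87911328: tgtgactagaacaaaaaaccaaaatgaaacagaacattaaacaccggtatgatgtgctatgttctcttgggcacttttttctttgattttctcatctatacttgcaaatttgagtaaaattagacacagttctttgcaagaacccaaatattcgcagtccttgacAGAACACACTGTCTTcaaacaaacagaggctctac

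The TNFRSF11B GBR is described by its matches only, the ALPL GBR 75.9 kb downstream, which had no match, is not printed, and the GBR of RUNX2 and SP7 are described by their calls.

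In control cells GR was called near 2 of the 10 genes, MSX2 and ALPL. Among the 20046 protein-coding genes, 17.0% had a GBR within 100 kb in the siNS/siNS list. After Hic-5 depletion 6 of the 10 genes had a GBR, against 43.6% of all protein-coding genes, and the 4 that were added were RUNX2, SP7, SPP1 and TNFRSF11B. With one minimum −log10 q-value of 14.2 for all lists, 3 genes had a GBR in siHic5/siNS and 2 in siNS/siNS, and of the 4 only TNFRSF11B (−log10 q-value 22.2) was kept, the values of RUNX2, SP7 and SPP1 being 12.5, 11.6 and 10.8. With CHD9 depleted as well, 2 genes had a GBR (16.4% of all genes), and with BRM depleted as well, 2 (22.2%). In cells that kept Hic-5, 1 gene had a GBR after CHD9 depletion (10.5% of all genes) and 2 after BRM depletion (9.92%). The genes retained in the double depletions were again MSX2 and ALPL. With the TSS of any transcript in place of the canonical one, 3 genes had a GBR in siNS/siNS and 6 in siHic5/siNS. The control count of 2 genes thus rests on the canonical TSS, and the gene added to siNS/siNS is not identified here. With only 10 genes, each count moves by a large step when 1 gene gains or loses a GBR.

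**Figure D1:**
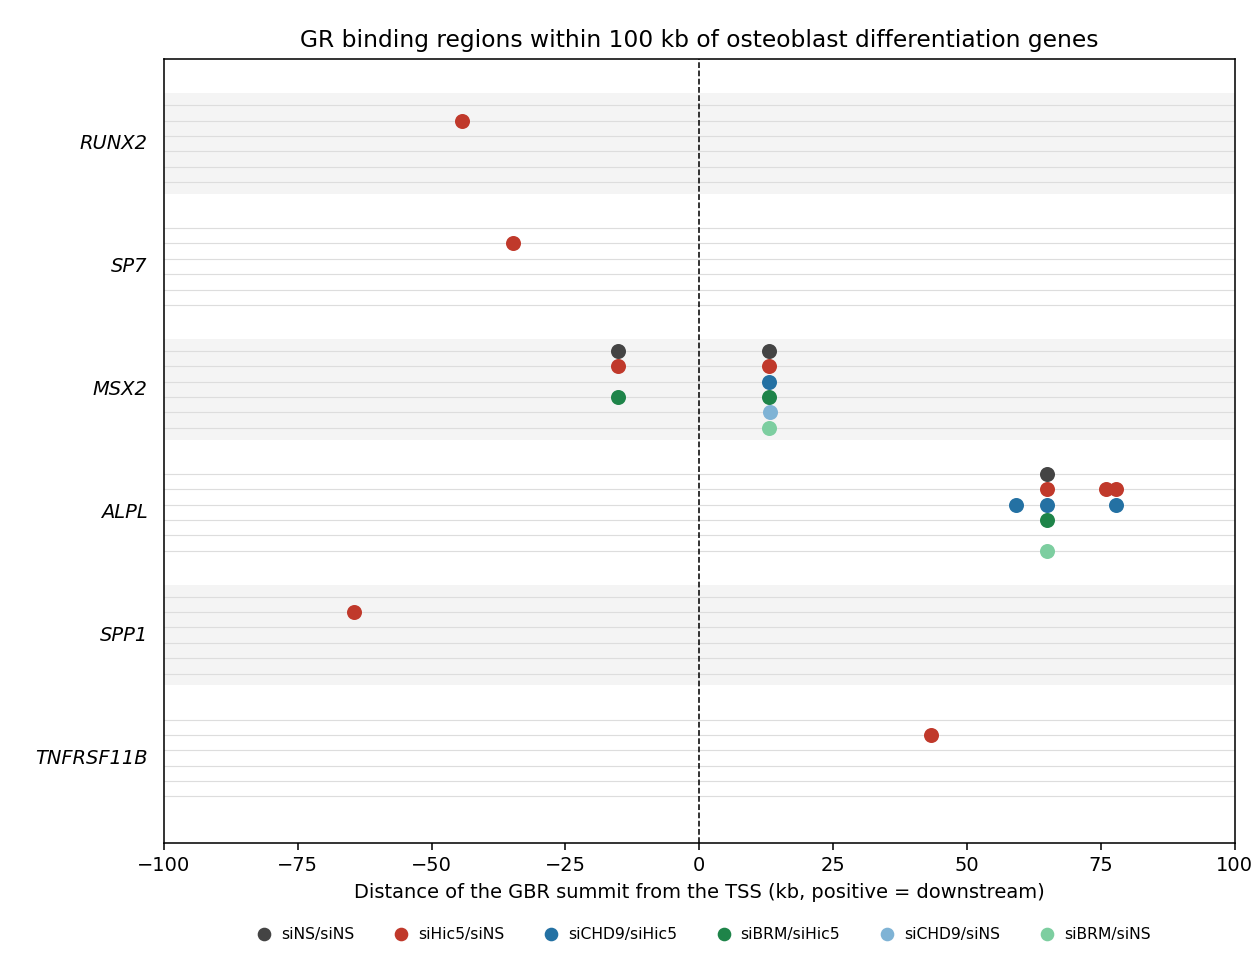
Position of every GBR near the osteoblast genes, in kb from the TSS (x axis, positive is downstream), with 1 line per peak list for each of the 6 genes that had a GBR. RUNX2, SP7, SPP1 and TNFRSF11B each have a single GBR called only in siHic5/siNS, whereas MSX2 has a GBR called in all 6 lists.

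**Figure D2:**
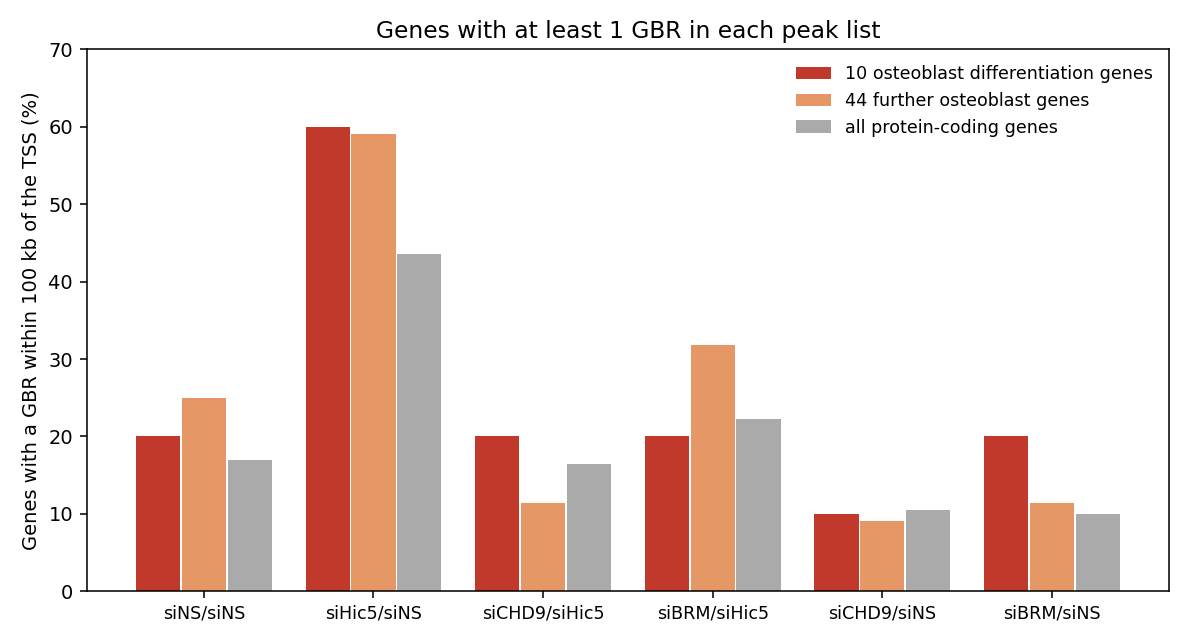
Percent of genes with at least 1 GBR within 100 kb of the TSS (y axis) in each peak list, for the 10 osteoblast differentiation genes, 44 further osteoblast genes and all protein-coding genes. The siHic5/siNS bars are the highest for each of the 3 sets, with 43.6% of all protein-coding genes.

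RUNX2, the transcription factor that commits progenitors to the osteoblast lineage, had 1 GBR, 44.3 kb upstream of its TSS. It lay in an intron of SUPT3H, the gene next to RUNX2, and RUNX2 was the nearest protein-coding TSS. It was called in siHic5/siNS alone, with a −log10 p-value of 15.7 and rank 7174 of 9533. This GBR was thus among the weaker ones of its list.

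SP7 (osterix), the zinc finger factor that acts after RUNX2, also had 1 GBR. It was called in siHic5/siNS alone, with a −log10 p-value of 14.8 and rank 7609 of 9533. It lay between genes, 34.9 kb upstream of SP7 but only 8.97 kb from the TSS of the ubiquitous factor SP1.

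MSX2, a homeobox factor that responds to BMP signals in bone, had 2 GBR, 1 on either side of its TSS. The downstream GBR, 13.1 kb from the TSS and at chr5:174737305-174738068 in siHic5/siNS, was called in all 6 lists. Its −log10 p-value was 114 in siNS/siNS, 203 in siHic5/siNS, 107 in siCHD9/siHic5, 196 in siBRM/siHic5, 84.4 in siCHD9/siNS and 87.6 in siBRM/siNS. The −log10 p-value depends on depth, so these values do not measure a change in GR binding between lists. The rank of this GBR was 79, 88, 88, 97, 67 and 36 in the same order, so it stood in the strongest 4.73% or better of every list. No other GBR near the 10 genes came as high, and the summits of the 6 lists lay within 86 bp of each other. Such a pattern of calls was found for 881 GBR, 9.05% of the 9736.

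The downstream MSX2 GBR held no GRE, AP-1, ETS or RUNX match in the 1 kb around its summit. Among siHic5/siNS GBR called in all 6 lists, a GRE match was present in the 200-bp window of 69.0% and in the 1-kb window of 74.5%. Instead the downstream MSX2 GBR held copies of a 36-bp unit in tandem, over 164 bp from chr5:174737611 to 174737774. Over the 200-bp window, 70.1% of bases were the same as the base 36 bp further on, whereas the best value at the other 9 GBR near the osteoblast genes was between 32.8% and 38.4%. A value of at least 70% was reached by 73 of the 9533 siHic5/siNS GBR (0.766%) and by 15 of the 882 of them called in every list (1.70%), a limit chosen after the sequence had been seen. How reads were placed in this repeat, and its part in the height of the peak, was not tested.

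The upstream MSX2 GBR lay 15.1 kb from the TSS, at chr5:174709259-174709728 in siHic5/siNS, and was called in 3 lists. It ranked 1737 of 2582 in siNS/siNS, 4097 of 9533 in siHic5/siNS and 1630 of 3383 in siBRM/siHic5, and it was not called in siCHD9/siHic5, siCHD9/siNS or siBRM/siNS. The −log10 p-values were 17.0, 25.2 and 33.7 for the same 3 lists. It carried a GRE match with a single mismatch, TGGACAGGTTGTCCT, 13 bp from its summit. The neighbouring GBR of MSX2 thus differed in strength, in their calls in siCHD9/siHic5, siCHD9/siNS and siBRM/siNS, and in sequence.

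MSX1 and DLX5, homeobox factors that act beside MSX2 and RUNX2, had no GBR within 100 kb in any list. The nearest siHic5/siNS GBR lay 187 kb from MSX1 and 192 kb from DLX5.

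ALPL, the tissue-nonspecific alkaline phosphatase that removes the mineralization inhibitor pyrophosphate, had more GBR than any other member, 4 within 100 kb, all downstream of its TSS. Of all protein-coding genes, 11.4% had 3 or more GBR in the siHic5/siNS list, as ALPL did. The strongest was 64.9 kb from the TSS, at chr1:21573989-21575033 in an ALPL intron, and was called in every list but siCHD9/siNS. It ranked 840 of 9533 in siHic5/siNS, 1037 of 2582 in siNS/siNS, 1364 of 2451 in siCHD9/siHic5, 1715 of 3383 in siBRM/siHic5 and 994 of 1278 in siBRM/siNS. The −log10 p-values were 74.6, 25.02, 18.8, 32.6 and 13.5 in that order. This GBR stood higher in its list after Hic-5 depletion alone than in any of the others, and its window held none of the 4 motifs.

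The other ALPL GBR were weaker and were called in 1 or 2 lists. One at chr1:21586670-21587504, in an intron of the long noncoding RNA gene LINC02596, was called in siHic5/siNS (rank 5370 of 9533) and again in siCHD9/siHic5 (rank 1653 of 2451), but not in siBRM/siHic5. Another, at chr1:21585107-21585427, was called in siHic5/siNS alone at rank 9166, near the end of that list. The third, at chr1:21568393-21568786 in an ALPL intron, was called in siCHD9/siHic5 alone at rank 2008 of 2451, a pattern shown by 64 GBR (0.657% of 9736). The siCHD9/siHic5 list thus held 3 of the 4 ALPL GBR, as did siHic5/siNS, with 2 in common. Both weak GBR that siCHD9/siHic5 called carried AP-1 matches, TGAGTCA at 45 bp before and 18 bp after the summit in one and at 57 bp before it in the other, and neither held a GRE. The strongest ALPL GBR and the downstream MSX2 GBR, also called in siCHD9/siHic5, held no AP-1 match. Of all siHic5/siNS GBR, 19.4% held one in the 200-bp window, and the share among siCHD9/siHic5 GBR is not given. For all 4 ALPL GBR the nearest protein-coding TSS was that of ENSG00000289715, an unnamed gene, and ALPL came after it.

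SPP1 (osteopontin), a phosphoprotein of the bone matrix, had 1 GBR, at chr4:87911049-87911549 and 64.5 kb upstream. It was called in siHic5/siNS alone, at rank 8080 of 9533 and a −log10 p-value of 13.9. The same GBR lay 78.3 kb from MEPE, another gene of the mineralized matrix that neighbours SPP1. A GRE match, AGAACACACTGTCTT, lay 72 bp from the summit. BGLAP (osteocalcin), a late marker that osteoblasts secrete, had none within 100 kb, and its nearest siHic5/siNS GBR lay 128 kb away.

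TNFRSF11B (osteoprotegerin), the decoy receptor that keeps TNFSF11 from osteoclast precursors, had 1 GBR, at chr8:118908332-118908777 and 43.3 kb downstream of its TSS. It was called in siHic5/siNS alone, yet it was not among the weakest GBR of that list, with rank 3994 of 9533 and a −log10 p-value of 25.7. It had 2 GRE matches, at 365 and 110 bp before the summit, and none in the 200-bp window. TNFSF11 (RANKL), the ligand that drives osteoclast formation, had no GBR within 100 kb, and the nearest in siHic5/siNS lay 147 kb away.

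**Figure D3:**
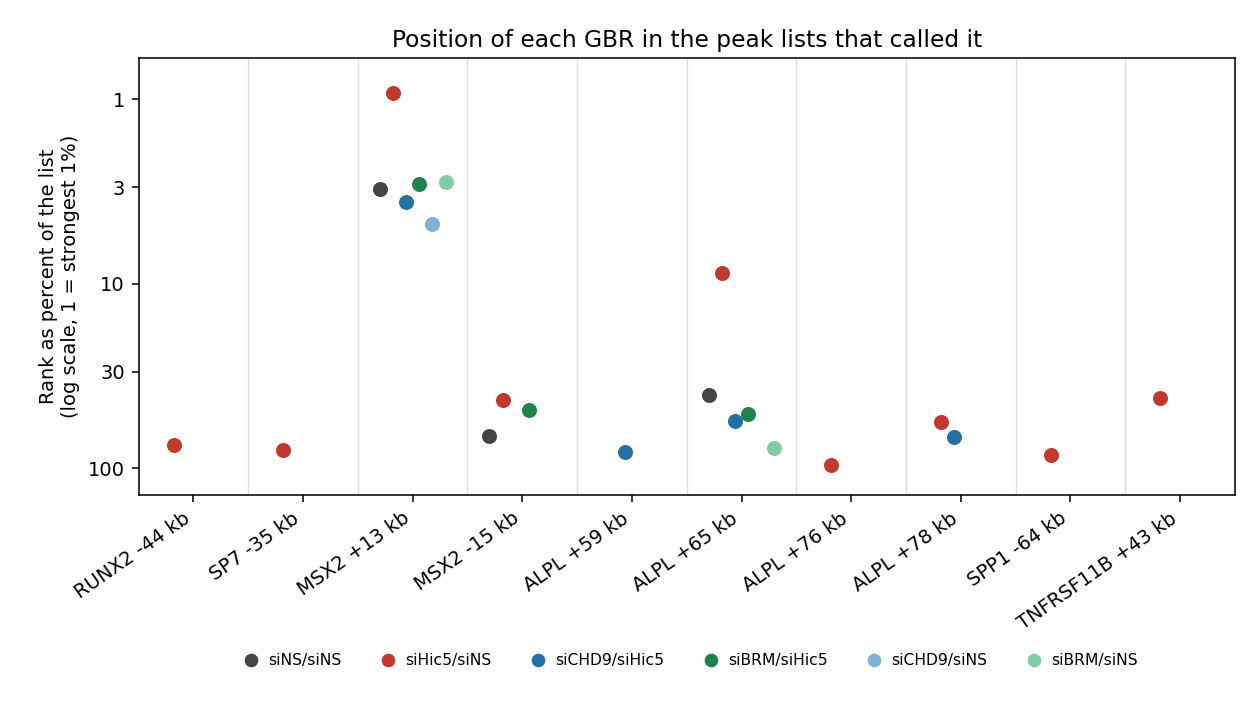
Rank of each GBR near the osteoblast genes as percent of the peak list that called it (y axis, log scale, strongest at the top), with 1 point per list. The MSX2 downstream GBR lies in the strongest 4.73% or better of every list, and the GBR of RUNX2, SP7 and SPP1 lie at 75.3% to 84.8% of the siHic5/siNS list.

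The effect of Hic-5 on these genes was read from siHic5/siNS GBR that did or did not overlap a siNS/siNS GBR. Of the 9 siHic5/siNS GBR near the osteoblast genes, 6 were blocked by Hic-5, which means they had no siNS/siNS counterpart (66.7%, exact 95% binomial interval 29.9 to 92.5, counting error only). Among all siHic5/siNS GBR the blocked share was 74.0%. The blocked GBR were those of RUNX2, SP7, SPP1 and TNFRSF11B and the ALPL GBR at 75.9 and 77.7 kb. The shared GBR were both GBR of MSX2 and the strongest of ALPL. All 3 siNS/siNS GBR near these genes were thus called after Hic-5 depletion too. The blocked share near these genes lay within counting error of the whole list, but with 9 GBR the interval is so wide that few shares could leave it.

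CHD9 depletion was examined at the same 9 GBR. Without an overlapping siCHD9/siHic5 GBR were 6 of 9 (66.7%, interval 29.9 to 92.5), against 75.4% of all siHic5/siNS GBR. Of the 6 blocked GBR, 5 were absent from siCHD9/siHic5 (83.3%, interval 35.9 to 99.6), against 90.6% of all blocked GBR, and the exception was the ALPL GBR in LINC02596. Of the 3 shared GBR only the upstream one of MSX2 was absent, against 32.3% of all shared GBR.

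BRM was compared in the same way. Without a siBRM/siHic5 counterpart were 6 of 9, against 65.4% of all siHic5/siNS GBR. They were the 6 blocked GBR (100%, interval 54.1 to 100; 83.3% of all blocked GBR), and the 3 shared GBR were all called in siBRM/siHic5 (absent 0 of 3, interval up to 70.8%; 14.3% of all shared GBR). Of the 9, those that separated the double depletions were the upstream GBR of MSX2, called without BRM but not without CHD9, and the ALPL GBR in LINC02596, called without CHD9 but not without BRM. The siBRM/siHic5 list also began at a higher −log10 q-value, 14.2, than siCHD9/siHic5, 7.74. With 14.2 as the minimum for all lists, the siCHD9/siHic5 call of the ALPL GBR in LINC02596 fell away. That GBR then no longer separated the double depletions, whereas the upstream GBR of MSX2 still did. The latter then had no siNS/siNS call, so it was a blocked GBR that siBRM/siHic5 called. At this minimum 3 of 5 GBR were absent from siCHD9/siHic5 and 2 of 5 from siBRM/siHic5. Whether uncalled GBR had siBRM/siHic5 peaks below 14.2 cannot be read from that list.

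In cells that kept Hic-5, 2 of the 3 siNS/siNS GBR were absent from siCHD9/siNS, against 51.4% of all siNS/siNS GBR, and 1 of 3 was absent from siBRM/siNS, against 52.2%. The downstream GBR of MSX2 was called in both lists. The upstream GBR of MSX2 was called in neither, and the strongest ALPL GBR was called in siBRM/siNS alone. With 3 GBR the exact intervals of these shares ran from 9.43% to 99.2% and from 0.84% to 90.6%.

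To set each GBR beside others of like strength, the siHic5/siNS list was divided by −log10 p-value into 10 groups of equal size, group 1 being the strongest. Of all GBR in group 1, 94.8% were called in siNS/siNS, 93.9% in siCHD9/siHic5 and 98.7% in siBRM/siHic5, and in group 8, with the GBR of RUNX2 and SP7, these shares were 3.78%, 2.83% and 4.72%. The downstream MSX2 GBR and the strongest ALPL GBR lay in group 1 and were called in all 3 of these lists. Those of RUNX2, SP7, SPP1 and the ALPL GBR at 75.9 kb lay in groups 8 to 10 and were called in none of the 3. The GBR of TNFRSF11B and the upstream GBR of MSX2 lay both in group 5. Only the latter was called in siNS/siNS (14.8% of that group) and siBRM/siHic5 (22.8%), and neither was called in siCHD9/siHic5 (11.6%). The ALPL GBR in LINC02596 lay in group 6, of which 8.60% were called in siCHD9/siHic5. An uncalled GBR may still hold GR below the limit of its list. The −log10 p-values printed for each list were not used to compare peak heights between lists, because they depend on depth.

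**Figure D4:**
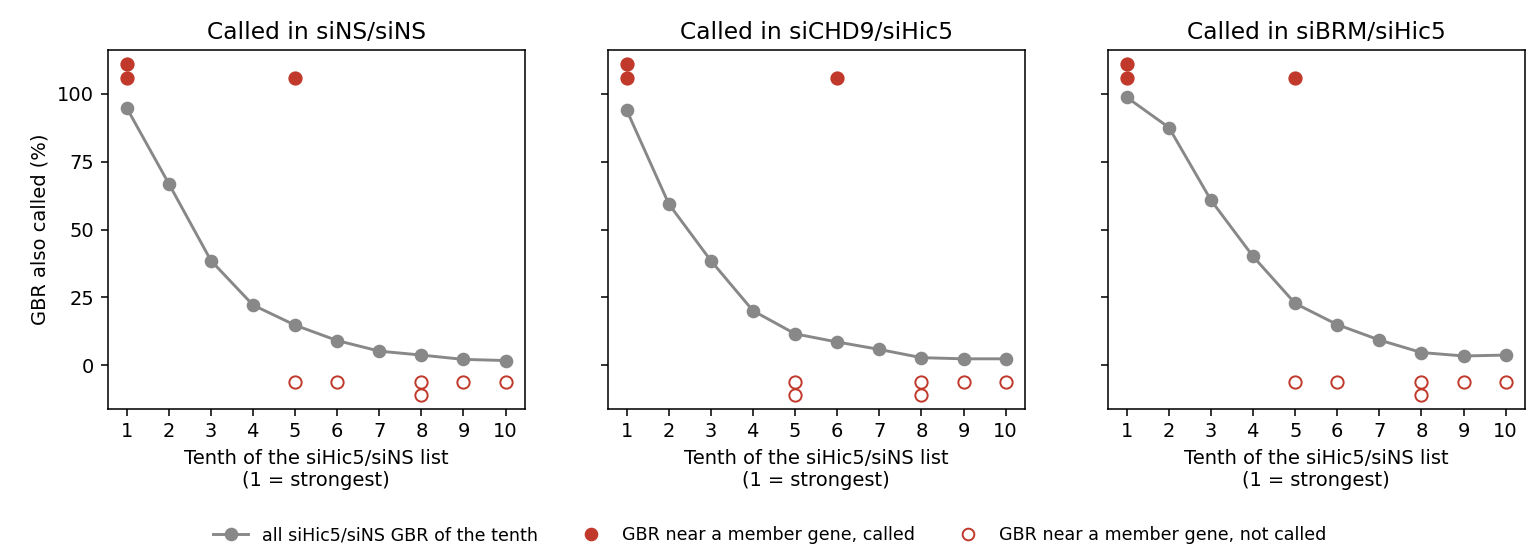
Percent of all siHic5/siNS GBR that were also called in siNS/siNS, siCHD9/siHic5 or siBRM/siHic5 (y axis) by group of the list divided by −log10 p-value (x axis, 1 is the strongest of 10 groups), with the 9 GBR near osteoblast genes as points above 100% (called) or below 0% (not called), where the height of these points has no unit. The 2 GBR in group 1 are called in all 3 lists and those in groups 8 to 10 in none.

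Motif content at the 9 siHic5/siNS GBR was set beside that of the whole list, in 200-bp windows. A GRE was found at 3 of 9, those of SPP1 and the upstream GBR of MSX2 among them, against 46.1% of all siHic5/siNS GBR. AP-1 was found at 1, against 19.4%, ETS at 1, against 13.8%, and RUNX at 1, against 16.9%. The AP-1 and RUNX matches were both at the ALPL GBR in LINC02596. No window held a GRE without mismatch. Windows 5 kb to either side of all siHic5/siNS GBR held a GRE in 2.38%, AP-1 in 3.37%, ETS in 6.48% and RUNX in 13.4%. In 1-kb windows around the summits, a GRE was found at 4 of the 9 GBR (53.6% of all siHic5/siNS GBR) and AP-1 at 1 (37.1%). ETS was found at 4 (37.9%) and RUNX at 4 (53.7%). The ETS share was thus below that of the list in 200 bp and above it in 1 kb. A match is a description of the letters only.

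A further 44 genes of osteoblast biology were examined, in 4 groups by their role. A GBR within 100 kb was called in siNS/siNS for 11 of them (25%, against 17.0% of all protein-coding genes), in siHic5/siNS for 26 (59.1%, against 43.6%) and in siBRM/siHic5 for 14 (31.8%, against 22.2%). In siCHD9/siHic5 it was called for 5 (11.4%, against 16.4%), in siCHD9/siNS for 4 (9.09%, against 10.5%) and in siBRM/siNS for 5 (11.4%, against 9.92%). The share was thus above that of all genes in some lists and below it in others, and these differences were not tested. A GBR was absent from every list for 18 of the 44, where 56.4% of all protein-coding genes had none in siHic5/siNS. Of the 26 with a GBR in siHic5/siNS, 15 had none in siNS/siNS. Among the 8733 protein-coding genes with a siHic5/siNS GBR, 38.5% also had one in siNS/siNS.

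Of the 20 BMP and WNT genes, 14 had a GBR in siHic5/siNS, 5 in siNS/siNS, 7 in siBRM/siHic5 and 1 in siCHD9/siHic5, where the shares of all protein-coding genes were 43.6%, 17.0%, 22.2% and 16.4% in that order. BMP7, a BMP ligand, had 4 GBR in siHic5/siNS and 1 in siNS/siNS, and the strongest, 11.3 kb upstream, was called in both lists and in siBRM/siHic5 and siBRM/siNS. The receptor BMPR1A had 1 GBR, 91.5 kb upstream at rank 877 in siHic5/siNS, and the signal transducer SMAD5 had 2. The inhibitory SMAD6 and SMAD7 had 4 and 2 GBR in siHic5/siNS, and 1 and 2 in siNS/siNS. These 5 were the BMP and WNT genes with a siNS/siNS GBR. None of them had a GBR in siCHD9/siHic5, whereas each had at least 1 in siBRM/siHic5. Over the whole siHic5/siNS list, 32.3% of the shared peaks lacked a siCHD9/siHic5 counterpart and 14.3% a siBRM/siHic5 one. Those shares count GBR and not genes, and the contrast at the 5 genes was not tested. DKK1 was the 1 gene of this group with a GBR in siCHD9/siHic5, and siBRM/siHic5 called that GBR too. NOG (noggin), a secreted BMP antagonist, had 5 GBR in siHic5/siNS and none in any other list. CTNNB1 (β-catenin), the effector of WNT signaling, had a GBR 0.093 kb from its TSS at rank 2724, and WNT5A one 13.3 kb upstream at rank 1772.

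Among the 8 transcription factors, DLX3 had 2 GBR in each of siNS/siNS, siHic5/siNS, siCHD9/siHic5 and siBRM/siHic5. ZBTB16, a zinc finger factor and known glucocorticoid target, had 6 GBR in siHic5/siNS and at least 1 in every list, with the strongest at rank 208. TWIST1, which restrains RUNX2, had 1, 77.5 kb away and in siHic5/siNS alone. Of the 10 matrix and mineral genes, 5 had a GBR in siHic5/siNS, 1 in siNS/siNS and none in siCHD9/siHic5, against 43.6%, 17.0% and 16.4% of all protein-coding genes. The one in siNS/siNS was COL1A1, a chain of type I collagen, 8.95 kb upstream.

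The 6 genes of osteoclast coupling and hormone response had a GBR for 4 genes in siHic5/siNS, 3 in siNS/siNS, 4 in siBRM/siHic5 and 2 in siCHD9/siHic5, against 43.6%, 17.0%, 22.2% and 16.4% of all protein-coding genes. CSF1, the growth factor of osteoclast precursors, and VDR, the vitamin D receptor, had a GBR in all 6 lists, at ranks 629 and 475 in siHic5/siNS. These GBR lay 17.3 kb from the TSS of CSF1 and 84.3 kb from that of VDR. HSD11B2, which inactivates cortisol, had 3 GBR in siHic5/siNS and 1 in siNS/siNS. PTH1R, the parathyroid hormone receptor, had 3 GBR in siHic5/siNS and 2 in siBRM/siHic5 but none in siNS/siNS, and the strongest lay 4.18 kb upstream at rank 1425.

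**Figure D5:**
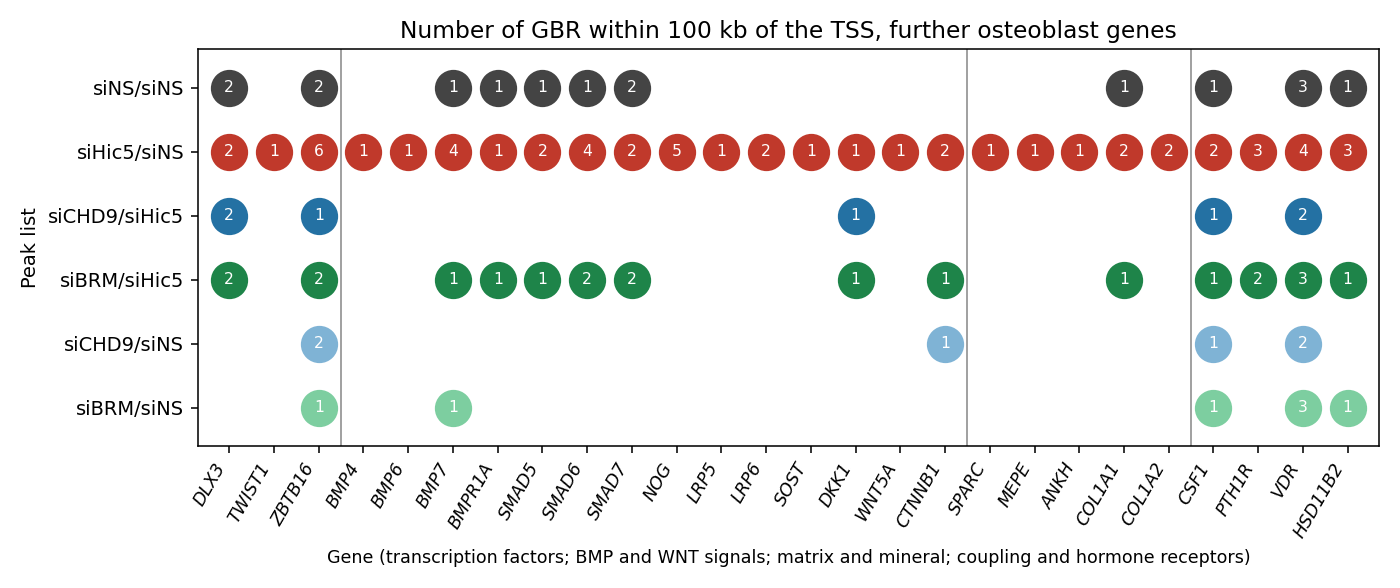
Number of GBR within 100 kb of the TSS (in each circle) for the genes of the 44-gene list with at least 1 GBR (x axis, in 4 groups separated by lines) in each of the 6 peak lists (y axis). The siHic5/siNS line has 26 genes, and ZBTB16, CSF1 and VDR are the genes with a GBR in every list.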

How the data were processed

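GR ChIP-seq was made from 2 biological replicates, processed on different days, of each of 6 siRNA combinations, with 1 input library per combination. The authors aligned reads to GRCh38/hg38 using BWA, discarded duplicates and mitochondrial alignments, pooled the replicates and called peaks by MACS2 and IDR; versions are not given in the sources used here. The deposited lists hold, as −log10, a p-value and a q-value for each peak, which served to rank peaks within a list. The fold or signal column was not used, and library depth was not recomputed. TSS were the canonical ones of GENCODE release 44 (20046 protein-coding genes). Motifs were searched as consensus strings in GRCh38, and intervals were exact binomial at 95% confidence.

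The members and gene lists were chosen with earlier results of these data known. The named genes were all 10 members, and of the 44 further genes those with a siNS/siNS GBR and the 5 others with the best-ranked siHic5/siNS GBR. DKK1 and MEPE were named besides these, for the reasons given where they appear. Alternatives changed the distance, the TSS, the overlap, the q-value minimum, the list length and the motif. Simulated data were used to test overlap counting and motif searches. Python 3.11.15, NumPy 2.4.6, SciPy 1.17.1, pandas 2.3.3, Matplotlib 3.10.9 and bedtools 2.31.1 were used. The sequences of some GBR are not reported here. ATAC-seq, input libraries and the DiffBind sets were not analysed here.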

Additional observations from a re-analysis of the deposited data

How the results depend on the processing

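No paired analysis was possible because the deposited lists were made from pooled replicates, and for the same reason no replicate could be left out. Within 50 kb, GBR near the 10 genes numbered 5 in siHic5/siNS, 1 in siCHD9/siHic5 and 1 in siBRM/siNS, and genes with a GBR numbered 1 in siNS/siNS, siCHD9/siHic5, siBRM/siHic5 and siBRM/siNS. Within 200 kb, GBR numbered 8 in siNS/siNS, 24 in siHic5/siNS, 8 in siCHD9/siHic5, 9 in siBRM/siHic5 and 4 in siCHD9/siNS, and genes 5 in siNS/siNS, 10 in siHic5/siNS, 4 in siBRM/siHic5 and 3 in siCHD9/siNS. The shares of all protein-coding genes are not given at 50 or 200 kb or for the TSS of any transcript, so those gene counts cannot be set beside a background. With the TSS of any transcript, siNS/siNS had 4 GBR and 3 genes, siHic5/siNS 13 GBR and 6 genes, and siCHD9/siNS 2 GBR and 2 genes. With one q-value minimum for all lists, siHic5/siNS had 5 GBR and 3 genes, siCHD9/siHic5 2 GBR, and siBRM/siNS 1 GBR and 1 gene. With the 1000 strongest peaks per list, siHic5/siNS had 2 GBR and 2 genes, and siNS/siNS, siCHD9/siHic5 and siBRM/siHic5 had 1 of each. Without the MSX2 downstream GBR, an alternative chosen after seeing the data, siCHD9/siNS had 0 GBR and siBRM/siNS had 1. A GRE without mismatch was at 0% of the 9 GBR. Of the 44 further genes, 7, 14, 3, 2 and 3 had a GBR within 50 kb in siNS/siNS, siHic5/siNS, siCHD9/siHic5, siCHD9/siNS and siBRM/siNS, and within 200 kb 13 did in siCHD9/siHic5 and 8 in siCHD9/siNS. Counts fall or rise with the distance and the list length by construction; the cause of the other shifts was not tested. The shares of blocked and absent GBR stayed within their intervals under the alternatives run for each. With 9 or 3 GBR these intervals are so wide that few outcomes could leave them. With one q-value minimum, absence from siBRM/siHic5 went from 6 of 9 to 2 of 5, and absence from siCHD9/siHic5 from 6 of 9 to 3 of 5. The shares absent among blocked or shared GBR alone were not rerun, and those for siCHD9/siNS and siBRM/siNS only with other overlap rules.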

Other observations

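GBR between 100 and 200 kb from the TSS were called for all 10 genes but SPP1. The share of all protein-coding genes with a GBR in that range is not given. BGLAP had 3, of which the one 130.0 kb upstream, at chr1:156112213-156112780 in siHic5/siNS, was called in all 6 lists, at rank 818 in siHic5/siNS, 330 in siBRM/siHic5 and 867 in siCHD9/siHic5. ALPL had 4 more, and one 130.0 kb downstream, at rank 767 in siHic5/siNS and 614 in siCHD9/siHic5, was also called in siBRM/siHic5 and siCHD9/siNS but not in siNS/siNS. RUNX2 had 2 more, and the one 118 kb downstream was called in siNS/siNS (rank 2329 of 2582) and siHic5/siNS (rank 9083 of 9533). MSX1 had 1, 187 kb away, called in siHic5/siNS, siBRM/siHic5 and siNS/siNS. DLX5, MSX2, SP7, TNFRSF11B and TNFSF11 had 1 each in that range, all called in siHic5/siNS alone.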
